A study of Homo sapiens with 4 samples.

Results

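The G1 phase regulators examined here are 10 genes: the D cyclins CCND1, CCND2 and CCND3, the kinases CDK4, CDK6 and CDK2, cyclin E2 (CCNE2), the phosphatase CDC25A, and the transcription factors E2F3 and E2F5. They were chosen by name as regulators of the passage from G1 into S phase, several of which are known targets of miR-34a, and every non-control probe whose gene name in the scanner output is exactly one of them was taken. This gave 12 probes, out of 50599 probes and 36337 gene names on the array, and 11 of them passed the filter on background, each detected on all 4 arrays. The exception was the only probe for CDK6.

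GIST-T1, the source of the RNA, is an established cell line grown from a human gastrointestinal stromal tumor. Cells (3000000 per transfection) were electroporated with 100 pmol of a mirVana miR-34a mimic, a synthetic duplex that supplies the mature strand, or of mirVana miRNA mimic Negative Control #1, and total RNA was taken 48 h later. Each condition had 2 arrays, numbered as replicates in the labels, and whether these came from separate cultures is not stated, so p-values measure the spread between the arrays, which may be technical. Untransfected cells were not analysed here, so an effect common to both RNAs cannot be seen.

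Cells leave G1 when D cyclins activate CDK4 and CDK6, and cyclin E then activates CDK2. These kinases phosphorylate RB1 and its relatives, which releases E2F factors to switch on the genes of DNA replication. CDC25A removes inhibitory phosphates from the kinases, and CDK inhibitors such as CDKN1A and CDKN1B hold them back. miR-34a is transcribed under the control of p53 and is known for arresting tumor cells in G1. CDK4, CDK6, CCND1, CCNE2, E2F3, E2F5 and CDC25A have all been described as its targets in other cells.

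A miRNA recognizes mRNAs mainly through its seed, bases 2 to 8 from the 5′ end, so the mature strand is shown to fix what the mimic can pair with. The capitals mark the seed, and the sequence is that of RefSeq on the minus strand of chromosome 1 of GRCh38.p14, chr1:9151735-9151756.
miR-34a-5p: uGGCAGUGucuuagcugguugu

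A full seed match in an mRNA reads CACTGCC, and the shorter match followed by an A reads ACTGCCA. These sites usually act in the 3′ ends of mRNAs, which were not analysed here. Among the 60-base probe sequences themselves, 0 of the 12 member probes held either 7-mer, as against 0.7% of the 50599 probes on the array.

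A level below is the log2 processed signal minus the 75th percentile of its array, and a difference is the mean level with the miR-34a mimic minus that with the negative control. All 4 arrays shared 1 slide and 1 scan, but those of a condition were neighbors on the slide, so that position and condition cannot be told apart. Per array, 41.8% to 45.2% of the probes were well above background, and the lowest level of a probe so detected was between -3.30 and -3.20. All 5 markers of this tumor type (KIT, ANO1, ETV1, PRKCQ and CD34) were well above background on the 4 arrays, whereas PECAM1 and ALB (endothelium and liver) were so on no array and PTPRC (leukocytes) on at most 2. EPCAM (epithelium), with levels of -2.27 to -1.69, and the muscle marker DES, with levels of 0.68 to 1.12, were detected on all 4. Of the tumor markers, KIT had levels of 6.74 and 6.79 with the mimic and 7.46 and 7.46 with the control. Its difference was -0.70 on the brightest probe (adjusted p = 0.0948 by limma, and 0.00705 when the variance follows the signal intensity) and between -0.74 and -0.70 over its 3 probes, which is larger in size than that of most members. CD34 differed by 0.37 on its brightest probe (adjusted p = 0.133 by limma, and 0.0407 with that variance). PRKCQ, ETV1 and ANO1 differed by -0.23, -0.07 and -0.06 on theirs. The difference of ETV1 lay between -0.07 and 0.29 over its 4 probes, and that of ANO1 between -0.20 and -0.06 over its 2. DES differed by -0.39 (adjusted p = 0.0994 by limma, and 0.0347 with that variance) and EPCAM by 0.41 (0.189 and 0.247). The part of these shifts in the results was not tested.

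Of the 11 tested probes, 10 were lower with the miR-34a mimic and 1, for CCND2, was higher. In all 10 neither array of the mimic reached the lower of the controls, where 30.1% of all tested probes were separated in this way, and in CCND2 both lay above, as in 30.4% of all tested probes. CCNE2 and E2F5 were lower by 2.23-fold and 2.04-fold on their brightest probes, and CDK4, CDC25A and E2F3 by 1.42-fold to 1.45-fold. CCND1, CCND3 and CDK2 were lower by 1.16-fold or less. Over the brightest tested probe of each of 9 genes the median difference was -0.50, beside -0.01 over all 16192 gene names tested, of which 51.3% had a difference below 0 (51.5% of the tested probes).

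By limma at an adjusted p under 0.05, 0 of the 11 probes were called, and 0% of all 21474 tested probes were called lower and 0% higher. Before adjustment, 8 of the 11 probes were lower and 0 higher at a p under 0.05 by limma, beside 11.6% and 12.7% of all tested probes. Lower by more than 1.5-fold were 4 of the 11, the probes of CCNE2 and E2F5 and 1 of those of E2F3, beside 4.8% of all tested probes, and 0 were higher by that much, beside 2.11%. When limma let the variance follow the signal intensity (the variance trend), 6 probes, those of CDK4, CCND1, CDC25A and E2F5 and the brightest ones of CCNE2 and E2F3, had an adjusted p under 0.05 and were lower, beside 3.6% of all tested probes lower and 3.81% higher. For any one probe, the smallest p that an exact permutation test (two-sided) allows with 2 arrays a condition is 0.33.

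**Figure D1:**
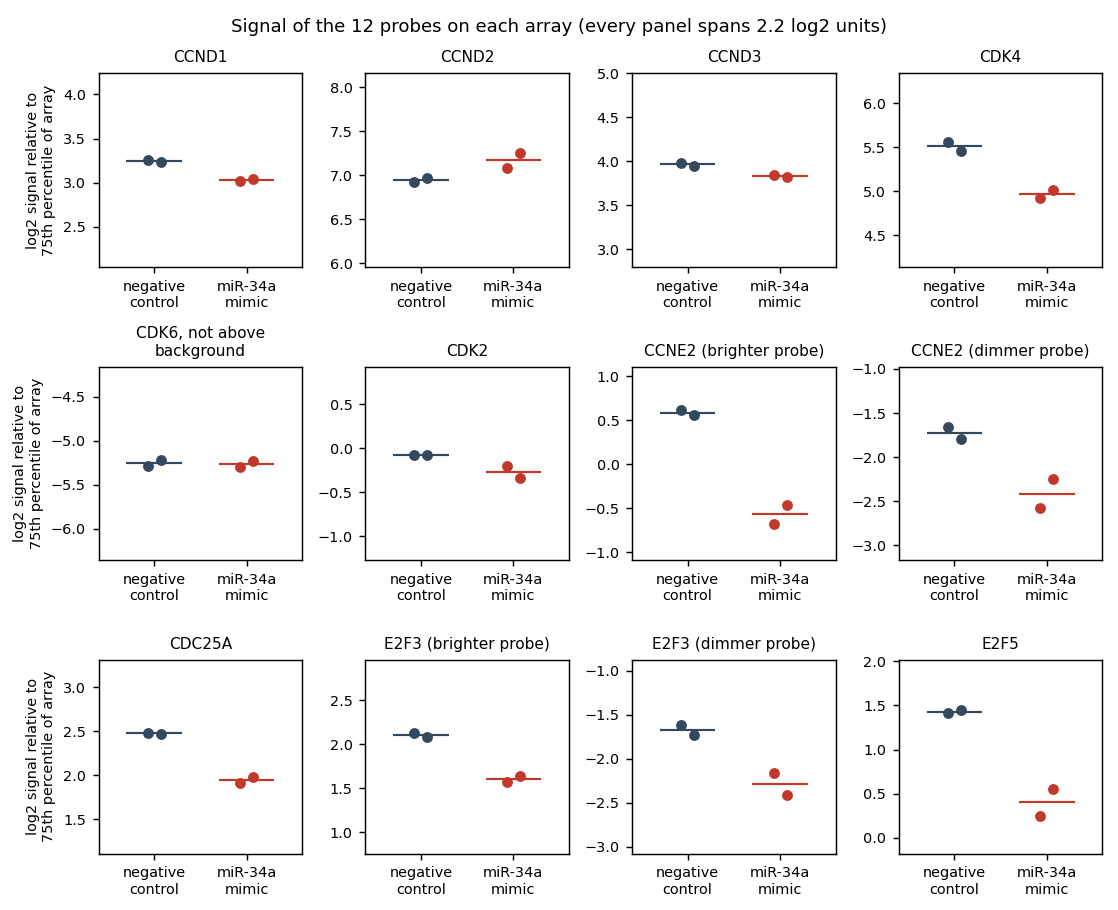
The log2 signal of each of the 12 probes, relative to the 75th percentile of the array, is plotted for the 2 negative control arrays (dark) and the 2 miR-34a mimic arrays (red), with the mean as a line. The red points lie below the dark ones in 10 panels and above them for CCND2, and for CDK6 no array was above background.

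Cyclin D1 (CCND1, NM_053056) is the D cyclin most often amplified in human cancers, and it links growth factor signals to CDK4 and CDK6. Its probe lies on chromosome 11 of hg19 from 69468233 to 69468292. The level was 3.02 and 3.05 with the mimic and 3.26 and 3.24 with the control. The groups did not overlap and the spread within each was small, but so was the shift. The difference was -0.21 (standard error 0.053, 95% interval -0.37 to -0.06), and the adjusted p was 0.146 by limma. This probe is spotted 10 times on each array, and the log2 signal of its spots had an SD of 0.0587 to 0.0818 within an array, so that each printed level is a mean of many spots.

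CCND2 (NM_001759) is the D cyclin that stood apart from the other members in direction. Its level was 7.08 and 7.26 with the mimic and 6.92 and 6.97 with the control. Both miR-34a mimic arrays were above both negative control arrays, by a margin smaller than the gap between the miR-34a mimic arrays themselves. The difference was 0.22 (standard error 0.085, 95% interval -0.02 to 0.47), with an adjusted p of 0.229 by limma. It was 0.14 without miR-34a mimic 2, 0.31 without miR-34a mimic 1 and 0.32 after quantile normalization. Leaving out an array could not change the sign, because the arrays of the conditions did not overlap. The interval includes 0, so that both the direction and the size are uncertain.

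CCND3 (NM_001760), the D cyclin known for its role in lymphocytes and muscle, had levels of 3.85 and 3.82 with the mimic and 3.99 and 3.94 with the control. The groups were narrowly separated. The difference of -0.13 (95% interval -0.29 to 0.03) had an adjusted p of 0.26 by limma, and a decrease of over 1.5-fold lies outside that interval.

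CDK4 (NM_000075), the catalytic partner of the D cyclins, was measured by a probe on chromosome 12 of hg19 from 58142263 to 58142322. Its level was 4.93 and 5.02 with the mimic against 5.56 and 5.46 with the control. The lowest negative control value was well above the highest miR-34a mimic value. The difference was -0.54 (standard error 0.072, 95% interval -0.74 to -0.33), or 1.45-fold lower, and the adjusted p was 0.0954 by limma and 0.0144 by limma with the variance trend. The deposited processed signals showed the same order before any scaling, with 4423 and 4726 with the mimic and 6942 and 6272 with the control.

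CDK6 (NM_001259), the other kinase of the D cyclins and a described miR-34a target, could not be measured. Its probe, on chromosome 7 of hg19 from 92234443 to 92234502, had levels of -5.30 and -5.23 with the mimic and -5.28 and -5.22 with the control. All of these lay below the lowest level of any probe well above background, and no fold is given. The probe starts at base 11344 of the transcript in the array's annotation, far from its 5′ end, so a shorter CDK6 transcript that lacks this stretch would not be seen by it.

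CCNE2 (NM_057749) encodes cyclin E2, which activates CDK2 late in G1, and on its brighter probe it had the largest difference of the members as processed here. After normexp background correction E2F5 came first, with a difference of -0.83 against -0.80 for that probe. It was measured by 2 probes on chromosome 8 of hg19, from 95892618 to 95892677 and from 95894361 to 95894420. On the brighter probe the level was -0.68 and -0.46 with the miR-34a mimic and 0.61 and 0.56 with the negative control. The gap between the conditions was several times the gap between replicates. The difference was -1.16 (standard error 0.099, 95% interval -1.44 to -0.87), or 2.23-fold lower, with an adjusted p of 0.0948 by limma and 0.0112 with the variance trend.

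The second CCNE2 probe was closer to background, with levels of -2.58 and -2.25 with the mimic and -1.66 and -1.80 with the control. It pointed the same way, with a difference of -0.69 (standard error 0.145, 95% interval -1.11 to -0.26; adjusted p = 0.128 by limma). After normexp background correction, here with an offset of 50 added to every signal, the difference on this probe was -0.19. The correction and the offset were not separated.

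CDK2 (NM_001798), the kinase that cyclin E2 activates, showed no comparable shift. Its level was -0.20 and -0.34 with the mimic and -0.07 and -0.08 with the control. The groups did not overlap, but most of the spread came from the miR-34a mimic arrays. The difference was -0.19 (standard error 0.073, 95% interval -0.40 to 0.02) with an adjusted p of 0.23 by limma, and it was -0.12 without miR-34a mimic 2. Its probe is also spotted 10 times, with an SD between spots of 0.093 to 0.217 on the log2 scale.

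CDC25A (NM_001789) encodes the phosphatase that removes inhibitory phosphates from CDK2 and CDK4. Its probe lies on chromosome 3 of hg19 from 48199124 to 48199183. The level was 1.91 and 1.98 with the mimic and 2.48 and 2.46 with the control. Replicates lay close together in both conditions, and the groups were clearly separated. The difference was -0.53 (standard error 0.058, 95% interval -0.70 to -0.36), or 1.45-fold lower, with an adjusted p of 0.0948 by limma and 0.013 with the variance trend.

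E2F3 (NM_001949) is an activating E2F, and it was measured by 2 probes on chromosome 6 of hg19. One, from 20493845 to 20493904, starts at base 4908 of the transcript. Its level was 1.57 and 1.64 with the mimic and 2.13 and 2.08 with the control. The difference was -0.50 (standard error 0.062, 95% interval -0.68 to -0.32), with an adjusted p of 0.0954 by limma and 0.0166 with the variance trend.

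The other E2F3 probe starts at base 1665 and is shown because it reads a different stretch of the same mRNA, the end of an open reading frame. It covers chr6:20490602-20490661 of hg19 on the plus strand. A frame without a stop codon runs through all 60 bases up to the stop codon TGA in capitals.
E2F3 probe: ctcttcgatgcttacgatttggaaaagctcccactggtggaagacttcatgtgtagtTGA

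On this probe the level was -2.16 and -2.41 with the miR-34a mimic and -1.61 and -1.72 with the negative control. The difference was -0.62 (standard error 0.116, 95% interval -0.95 to -0.28; adjusted p = 0.116 by limma). The 2 probes of E2F3 gave differences whose intervals overlapped widely. After normexp background correction they were -0.42 and -0.30.

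E2F5 (NM_001951) is an E2F that binds DNA together with the RB1 relatives RBL1 and RBL2 and is known mainly as a repressor. Its probe lies on chromosome 8 of hg19 from 86126199 to 86126258. The level was 0.25 and 0.56 with the mimic and 1.42 and 1.44 with the control. The replicates of the mimic differed more than those of the control, yet both lay far below the control. The difference was -1.03 (standard error 0.126, 95% interval -1.39 to -0.66), or 2.04-fold lower, with an adjusted p of 0.0954 by limma and 0.0157 with the variance trend.

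**Figure D2:**
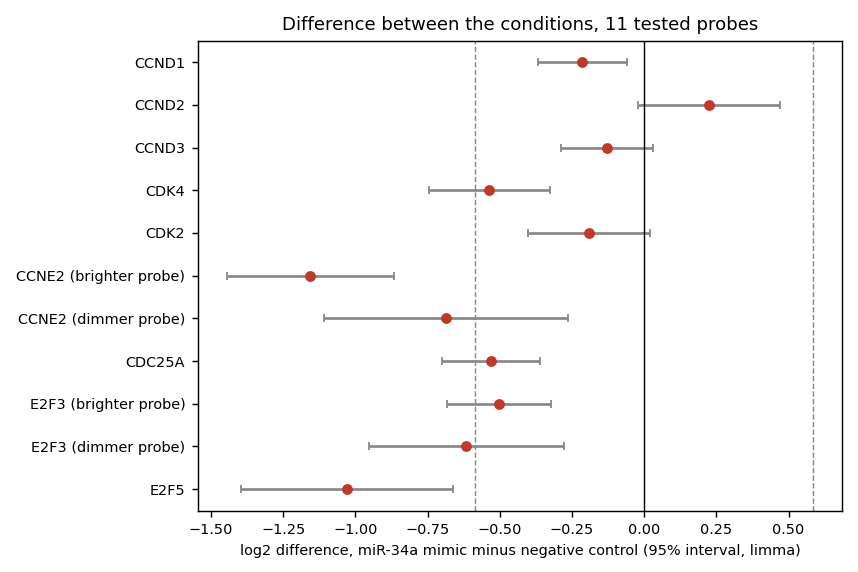
The log2 difference (mimic minus control) is plotted for the 11 tested probes, with the 95% interval from limma as bars and dashed lines at a fold of 1.5. The brighter CCNE2 probe (-1.16) and E2F5 (-1.03) lie farthest to the left, and the intervals of CCND2, CCND3 and CDK2 include 0.

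Across the members, the probes with the smallest unadjusted p by limma were those of CCNE2 (0.000561), CDC25A (0.00131), E2F3 (0.00193), E2F5 (0.00195) and CDK4 (0.00261). Their direction was the same in each of the 13 alternatives to the processing, but several of these could not change it, as described below. With an array left out in turn the difference lay between -1.27 and -1.05 for CCNE2 on its brighter probe, between -1.18 and -0.87 for E2F5, and between -0.59 and -0.49 for CDK4. It lay between -0.57 and -0.50 for CDC25A and between -0.54 and -0.46 for E2F3 on its brighter probe.

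**Figure D3:**
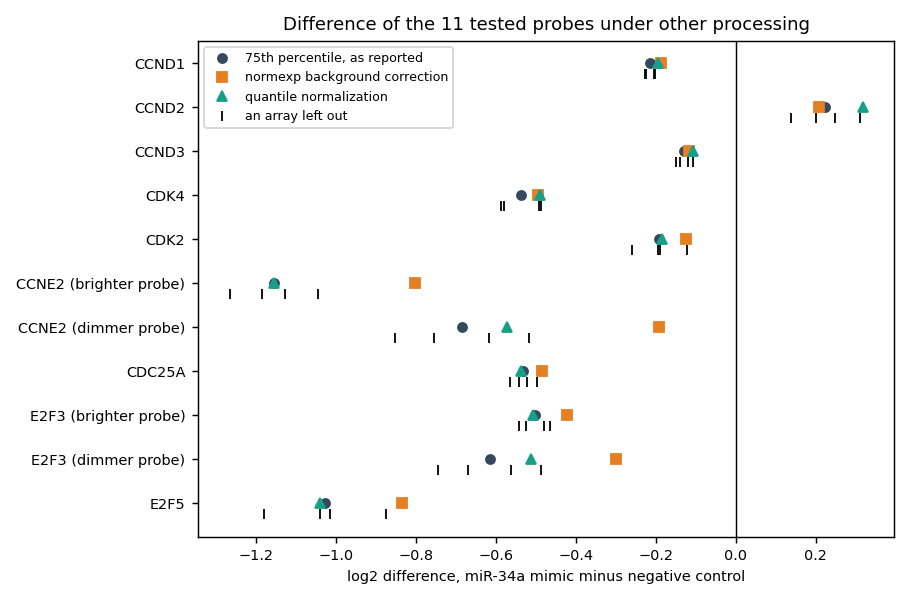
The log2 difference of each of the 11 tested probes is plotted as reported (circles), after normexp background correction (squares), after quantile normalization (triangles) and with each array left out (ticks). The dimmer CCNE2 probe moves most, from -0.69 to -0.19 under normexp, and no probe crosses 0.

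By profile over the 4 arrays, each centred on its own mean, the 3 gene names nearest to CCNE2 (brighter probe) among 16181 were SNORA28, SNORA27 and LOC100131248, with Euclidean distances of 0.0768, 0.117 and 0.128 log2 units and differences of -1.11, -1.23 and -1.19. With 4 arrays this likeness says only that these probes were lower by a similar amount.

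Of the 5 members with a RefSeq promoter at hand, 2 carry an E2F motif near the start of transcription, and they are printed because E2F target genes are described beside the members below. The motifs searched on both strands were TTTCCCGC, TTTCGCGC, TTTGCCGC and TTTGGCGC, in windows of 250 bases before to 50 after the start. CCND3, CDK4 and CDK6 had none of these letters in their windows, and the promoters of the other 5 members were not analysed here. Of all 27305 genes with a window, 3.99% held at least 1 of the motifs. The capitals mark the motif, which in CDC25A begins 44 bases before the start on the gene strand and in E2F3 lies on the opposite strand, 53 to 46 bases before the start. The stretches are chr3:48188418-48188667 on the minus strand and chr6:20401806-20401853 on the plus strand of GRCh38.p14.
CDC25A promoter: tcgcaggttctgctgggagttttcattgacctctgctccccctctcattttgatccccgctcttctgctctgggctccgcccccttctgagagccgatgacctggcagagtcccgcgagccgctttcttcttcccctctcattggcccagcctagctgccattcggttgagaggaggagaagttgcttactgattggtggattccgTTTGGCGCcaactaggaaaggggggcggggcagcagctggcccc
E2F3 promoter: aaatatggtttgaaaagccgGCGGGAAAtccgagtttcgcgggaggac

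Other genes of the G1/S pathway were counted on the brightest tested probe of each gene, and none of them was called at an adjusted p under 0.05 by limma or differed by more than 1.5-fold. Over all 16192 gene names, 4.83% were lower and 1.96% higher by more than 1.5-fold, and at an unadjusted p under 0.05 by limma 11.9% were lower and 13% higher.

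Among the E2F target genes of S phase, which make the replication machinery and its nucleotides, 15 of 18 were lower and 3 higher, with a median difference of -0.27. At an unadjusted p under 0.05, 11 of them were lower and 0 higher. MCM3, a subunit of the replicative helicase, had levels of 4.74 and 4.79 with the mimic and 5.26 and 5.28 with the control, a difference of -0.51 (standard error 0.055; adjusted p = 0.0948 by limma). CDC6, which loads that helicase, differed by -0.43 (standard error 0.119; adjusted p = 0.163 by limma) on a dim probe, and MYBL2, a transcription factor of cycling cells, by -0.42 (standard error 0.073; adjusted p = 0.109 by limma). With the variance trend, 9 genes of this list had an adjusted p under 0.05 by limma, all lower. Over all tested probes, 3.6% were lower and 3.81% higher by that measure. E2F motifs stood in the promoters of 9 of the 15 of these genes with a window, beside 3.99% of all genes. Of the 9, 7 were lower, and MCM6 (0.10) and POLA1 (0.01) were not. Of the genes with a window but no motif, CHAF1A, MYBL2, RRM1, RRM2 and TK1 were lower and ORC1 (0.05) was not. Whether the motif goes with the decrease was not tested, and the list was itself made of E2F targets. In the other lists the motifs stood in 3 of 9 promoters of pocket proteins and their partners, 2 of 5 of other E2Fs, 1 of 14 of other cyclins, CDKs and regulators, 0 of 6 of CDK inhibitors and 0 of 11 of the turnover genes.

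On the brightest probes the other E2Fs shifted less than E2F3 (-0.50) and E2F5 (-1.03) on the log2 scale. E2F8 shifted only slightly less than E2F3, and no difference between genes was tested. Of the 6 other E2Fs, 5 were lower, with a median difference of -0.18. E2F8, a late-acting repressor of E2F targets, had levels of -1.30 and -1.23 with the mimic and -0.86 and -0.75 with the control, a difference of -0.46 (adjusted p = 0.0999 by limma). E2F7, its relative, differed by -0.22 and E2F2 by -0.21. E2F1, the classic activator, differed by -0.15 (standard error 0.055; adjusted p = 0.219 by limma).

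Of 15 tested genes for other cyclins, CDKs and their regulators, 14 were lower, with a median difference of -0.16, and 5 had an unadjusted p under 0.05 by limma. CCNE1, the paralog of CCNE2, had levels of 6.25 and 6.26 with the mimic and 6.39 and 6.31 with the control. Its difference of -0.10 (standard error 0.060; adjusted p = 0.375 by limma) contrasts with that of CCNE2 in size, although the difference between the paralogs was not tested. CCNA2, the cyclin of S phase, differed by -0.22 (adjusted p = 0.15 by limma), as did CCNB2, a mitotic cyclin (adjusted p = 0.163 by limma). PKMYT1, a kinase that holds CDK1 inactive, differed by -0.36 (adjusted p = 0.0954 by limma and 0.0141 with the variance trend). WEE1, which does the same, differed by -0.43 (standard error 0.230; adjusted p = 0.329 by limma), but its miR-34a mimic arrays disagreed, with levels of 1.92 and 1.32.

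The CDK inhibitors went both ways. CDKN1A, the inhibitor that p53 induces, stayed below the detection limit on every array, with levels between -5.18 and -4.19. CDKN1B differed by 0.07 on its brighter probe (standard error 0.063; adjusted p = 0.522 by limma) and by -0.04 on the other. CDKN1C had levels of 3.44 and 3.58 with the mimic and 4.03 and 4.07 with the control, a difference of -0.54 (adjusted p = 0.0954 by limma and 0.0153 with the variance trend). CDKN2C, an inhibitor of CDK4 and CDK6, was on the other side, with 3.88 and 3.92 against 3.51 and 3.51 and a difference of 0.39 (adjusted p = 0.0954 by limma and 0.0146 with the variance trend). The median of the 5 tested inhibitors was -0.01.

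Of 9 pocket proteins, E2F partners and subunits of the MuvB complex, which represses cell cycle genes in resting cells, 6 were lower and 3 higher, with a median difference of -0.05. RB1, the retinoblastoma protein, had levels of 3.48 and 3.52 with the mimic and 3.57 and 3.55 with the control, a difference of -0.06 (standard error 0.054; adjusted p = 0.544 by limma). RBL1 differed by -0.21 (adjusted p = 0.177 by limma), TFDP2 by -0.16 and LIN54 by -0.13. Of 10 tested genes for the turnover of cyclins and CDK inhibitors, 8 were higher and 2 lower, with a median of 0.09, which was 0.01 without miR-34a mimic 2. In this group SKP2, which targets CDKN1B for degradation, differed by -0.20 (adjusted p = 0.191 by limma), and CUL1 and SKP1, subunits of the same ubiquitin ligase, by 0.19 and 0.18.

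**Figure D4:**
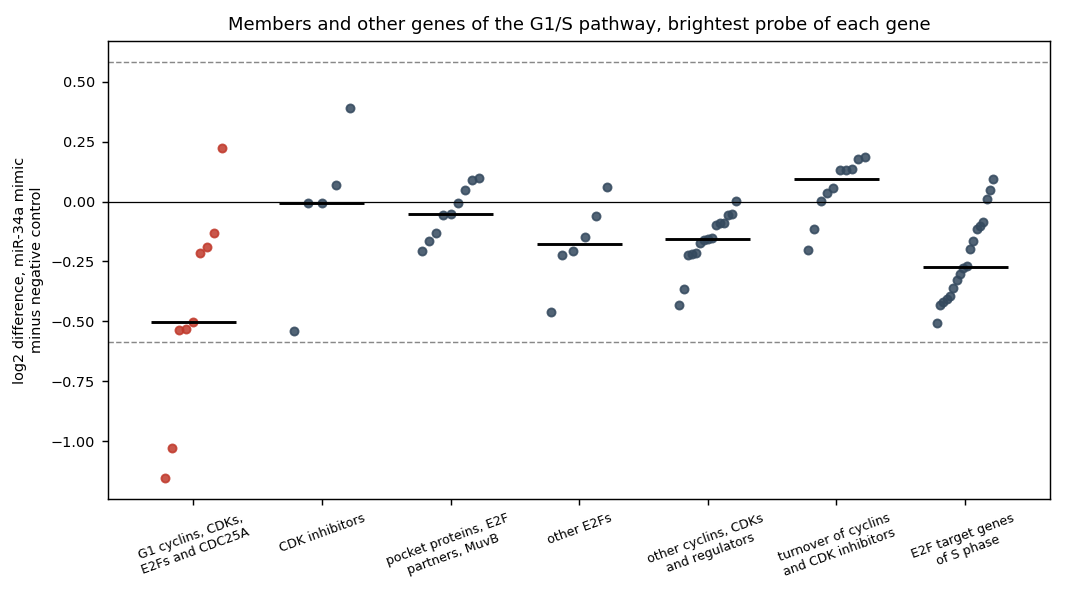
The log2 difference (mimic minus control) is plotted for the brightest tested probe of each gene in 7 groups, with the median as a bar and dashed lines at a fold of 1.5. The examined G1 regulators (red, median -0.50) reach -1.16, whereas the points of all other groups stay between the dashed lines, and the E2F target genes have a median of -0.27.

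In total RNA from a population, fewer cells in a phase of the cycle and less of an mRNA per cell cannot be told apart, and the part of a changed share of cycling cells in these differences was not tested. Proteins and kinase activities were not measured on these arrays.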

How the data were processed

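Total RNA (100 ng) of 2 samples per condition was labeled with Cy3 and hybridized to one-color Agilent arrays of 60-base probes (SurePrint G3 Human GE v2). The authors deposited the intensity of every spot from Agilent Feature Extraction 10.7 (per the labels): a processed signal, after background subtraction and spatial detrending, the mean and the local background intensity before correction, and flags. A deposited table of all arrays held the processed intensity within 0.496% of these values. No column lacked a mapped sample. The deposited flags of detection, saturation and outliers (a score of 0 or 1, other than intensity) set the filters. The deposited values are not scaled between arrays, and the array's own annotation gave the gene names and the hg19 positions.

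Control spots and outlier-flagged spots were left out, spots of a probe were averaged on the log2 scale, and the 75th percentile of each array was subtracted. Saturated spots numbered 0. Averaging 10 spots lowers the measurement error of CDK2 and CCND1 only. Limma 3.58.1 (lmFit, eBayes) in R 4.3.3, with Benjamini-Hochberg adjustment, was run over 21474 probes, those that at least 1 condition had well above background on both of its arrays. The methods of the study name t tests in general and none for the arrays. Precision is limited by the number of arrays. Between replicates, log2 values of the tested probes differed with an SD of 0.337 (miR-34a mimic) or 0.29 (negative control).

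The members and gene lists were chosen with earlier results of these data known. Named genes were all members with every probe, the 3 genes of each list with the largest absolute difference on the brightest tested probe, and CDKN1A, CDKN1B, RB1, E2F1, CCNE1 and CCNA2. Lists were described by counts and medians, and no list was tested. Alternatives were normexp (offset 50), quantile normalization, the percentile over detected probes, 3 other filters, the authors' table, a block for the replicate number, limma with a variance trend, the methods' t-test and leaving out each array. The calculations were tested on simulated data. Sequences were read from RefSeq tables on GRCh38.p14 and from the array's probe annotation.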

Additional observations from a re-analysis of the deposited data

How the results depend on the processing

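Among the 117 values obtained for the brightest probes of the 9 tested members under the 13 alternatives fitted with limma, 0 changed sign, 106 stayed on the same side of an adjusted p of 0.05, and 11 passed it. These 11 arose under normexp background correction (CDK4, CCNE2, E2F3, E2F5 and CDC25A) and under the variance trend (the same genes and CCND1). The sign could not change under the 3 other filters, the replicate block and the variance trend, which leave the difference itself as it was. Leaving out an array could not change it either, because in each tested member probe the arrays of the conditions did not overlap. The count of member probes called lower, 0 of 11 as reported, was 5 under normexp and 6 with the variance trend. By the methods' t-test it was 8 unadjusted and 0 after Benjamini-Hochberg adjustment. Over all 21474 tested probes, 434 were called lower and 443 higher under normexp, and 772 and 819 with the variance trend. The methods' t-test called 1855 lower and 2347 higher unadjusted, and 1 lower and 0 higher after that adjustment. The count of member probes lower by more than 1.5-fold, 4 as reported, was 2 under normexp and 2 after quantile normalization, where the dimmer probes of CCNE2 and E2F3 no longer passed. Leaving out an array also moved probes across that fold. The dimmer CCNE2 probe fell short without miR-34a mimic 1 (-0.52). The dimmer E2F3 probe did so without miR-34a mimic 2 (-0.49) and without negative control 1 (-0.56). CDK4 passed without negative control 2 (-0.59). The median difference of the members, -0.50 as reported, was -0.42 under normexp and lay between -0.54 and -0.46 with each array left out. For the other genes of the pathway, the calls, 0 as reported, were 5 lower and 1 higher under normexp. They were 11 lower and 1 higher with the variance trend, and 21 lower and 3 higher by the methods' t-test unadjusted. The calls over all tested probes, given above, also rose under these settings. With each array left out, 0 to 1 of the other pathway genes were lower by more than 1.5-fold, namely WEE1 (-0.73) without miR-34a mimic 1 and CDKN1C (-0.61) without miR-34a mimic 2. The median of the CDK inhibitors, -0.01, was 0.06 after quantile normalization. The median of the E2F target genes of S phase, -0.27, was -0.21 under normexp and -0.21 after quantile normalization. It was -0.23 without miR-34a mimic 1. The cause of these shifts was not tested.

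The replicate numbers are shared by the conditions, but the deviations of same-numbered arrays had a correlation of -0.0276 over the tested probes. No effect shared by same-numbered arrays was visible in this, and whether they were handled together is not stated. With the replicate block, 0 member probes were called, the median of the members was -0.50, and the adjusted p of the brighter CCNE2 probe was 0.223 by limma. When an array is left out, its condition has a lone array that is assumed to vary like those of the other. Signal over background limits CDK6 and CDKN1A, which could not be measured, and the dimmer probes of CCNE2 and E2F3.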
